A study of Mus musculus with 2 samples.

Results

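The genes described here are 10 effector genes of cytotoxic lymphocytes, out of 31053 genes in the count matrices: the granzymes Gzma, Gzmb and Gzmc, the pore-forming Prf1, the granule membrane gene Nkg7, the killer receptor genes Klrd1 and Ncr1, the cytokine Ifng, the death ligand Fasl and the chemokine Ccl1. They were chosen by their measured UMI counts (unique molecular identifiers, one per captured RNA molecule) in these same cells, so their levels are given as a description with no test. The cells came from a brain tumour with mutant IDH1 (mIDH1) in C57BL/6 mice at the symptomatic stage, profiled as 2 droplet libraries, replicates 1 and 2, of a single group. The labels name no untreated or wild-type group, and they do not say whether the libraries came from separate animals. The design text describes the models as genetically engineered gliomas.

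Cytotoxic T cells and natural killer (NK) cells kill by releasing granules in which granzymes, a family of serine proteases, are packed on the proteoglycan serglycin. Perforin opens a way into the target cell, where granzyme B cleaves caspases and other substrates, while Fas ligand kills through a death receptor. Granzyme B is not restricted to killer cells, since some myeloid cells, basophils and mast cells among them, are known to be able to express it, and its gene lies in a cluster with mast cell protease genes.

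Replicate 1 held 2704 barcodes and 63001350 UMIs, and replicate 2 held 2266 barcodes and 58915133 UMIs. Of these 4970 barcodes, 3186 passed the filters of 200 genes or more and no more than 15% mitochondrial UMIs. A barcode sequence was found in both libraries 10 times, and none of the 18 kept barcodes concerned held a UMI of the 10 genes. Cells under 1000 CPM (a gene's UMIs per 1000000 UMIs) of Nras were sorted by single marker genes, and those at or above it formed the tumour gate of 1981 cells. The gates were T (Cd3e, 68 cells), basophil (Mcpt8, 148), dendritic (Ccr7 without Cd3e, 90), plasmacytoid-like (Siglech with C1qa under 5 UMIs, 10), macrophage/microglia (C1qa at 5 UMIs or more, 491) and monocyte (Ly6c2 with Lyz2 at 5 UMIs or more, 103). No gate took 354 cells, and 51 cells lay in more than 1 gate.

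The gate names were set against lists of lineage markers. All 12 T markers were detected in the T gate, and 67 of its 68 cells held a further gene of the T cell receptor complex. All 10 basophil markers were detected in the basophil gate, with Cd200r3 in 134, Gata2 in 132 and Hdc in 140 of 148 cells. Of the 12 T markers, 10 were at 0 there, Cd3e, Cd3d and Cd3g included. Macrophage markers, Apoe among them, were present at 18155 and 20995 CPM in the T gate and at 4068 and 6148 CPM in the basophil gate; their part in the results was not tested. The dendritic gate held all 6 migratory dendritic markers, at 5740 and 4963 CPM, but 11 of the 12 T markers were also detected in it and macrophage markers were higher, at 17028 and 10584 CPM. Monocyte markers stood at 30104 and 25155 CPM in the monocyte gate, beside macrophage markers at 36992 and 17259 CPM and neutrophil markers at 23497 and 12166 CPM. The plasmacytoid-like gate held all 7 plasmacytoid markers, at 2336 and 2411 CPM, but in replicate 2 monocyte markers reached 5869 and basophil markers 2557 CPM.

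The promoters of the 3 granzymes are shown because Gzmb was found in T, NK-like and basophil cells, Gzmc in the T and basophil gates, and Gzma in T and NK-like cells without a UMI in the basophil gate. Each window is the 250 bases before the RefSeq start (GRCm38.p6), on the strand of the gene, 5′ to 3′. Gzmb lies on the minus strand at chr14:56262335-56262584, Gzmc on the minus strand at chr14:56234658-56234907, and Gzma on the minus strand at chr13:113100982-113101231. Capitals mark TGTGGT or its reverse complement, the core recognised by RUNX factors.
Gzmb: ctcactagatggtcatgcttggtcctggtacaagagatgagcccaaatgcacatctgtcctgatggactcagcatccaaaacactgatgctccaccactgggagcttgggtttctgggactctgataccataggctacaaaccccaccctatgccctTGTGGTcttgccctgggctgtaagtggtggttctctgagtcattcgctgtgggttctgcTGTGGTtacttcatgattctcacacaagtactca
Gzmc: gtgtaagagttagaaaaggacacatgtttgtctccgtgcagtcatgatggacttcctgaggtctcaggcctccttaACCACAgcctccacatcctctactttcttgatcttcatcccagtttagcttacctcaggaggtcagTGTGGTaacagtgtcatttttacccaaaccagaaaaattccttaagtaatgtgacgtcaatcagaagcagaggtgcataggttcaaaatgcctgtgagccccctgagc
Gzma: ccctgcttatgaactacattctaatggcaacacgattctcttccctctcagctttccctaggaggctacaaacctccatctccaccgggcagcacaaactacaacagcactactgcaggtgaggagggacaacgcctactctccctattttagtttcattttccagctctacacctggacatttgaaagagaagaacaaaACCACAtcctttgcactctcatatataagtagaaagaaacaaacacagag
The RUNX core occurred 2 times in the Gzmb window, 2 times in that of Gzmc and 1 time in that of Gzma, and none of these matches overlapped another motif searched. Of the 9 genes with a window in the table, 6 held it, against 14.0% of all 32851 windows of this length. Of 4 motifs searched on both strands, GATA was found in 6 of 9 windows (53.6% of all), the AP-1 motif TGANTCA in 1 of 9 (6.75% of all) and the E-box CANNTG in 9 of 9 (66.2% of all). These matches are a description of the letters in the windows.

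Most cells with a UMI of these genes lay outside the T gate, as did most of all cells. The T gate held 68 of the 1205 kept cells under 1000 CPM of Nras, and 54 of these 68 had such a UMI. In the basophil gate 93 of 148 cells had one. A UMI of any of the 10 genes was found in 245 kept cells, 222 of them under 1000 CPM of Nras. Outside the T gate lay 80.5% of the 128 such cells of replicate 1 and 69.1% of the 94 of replicate 2, a mean of 74.8% ± 8.004 (SD, n = 2). Counting every barcode with a T cell receptor gene as T lowered this to 64.8% ± 4.43 (SD, n = 2). Basophils made up the largest set, with 93 cells and 32.6% of all UMIs of the 10 genes, beside 54 T gate cells with 34.4%. The 10 genes were not spread evenly over these sets, and the plot of where each gene's UMIs lie shows Gzmb mainly in basophils, Ifng and Ccl1 in T cells, and Ncr1 in a few cells outside every gate.

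**Figure D1:**
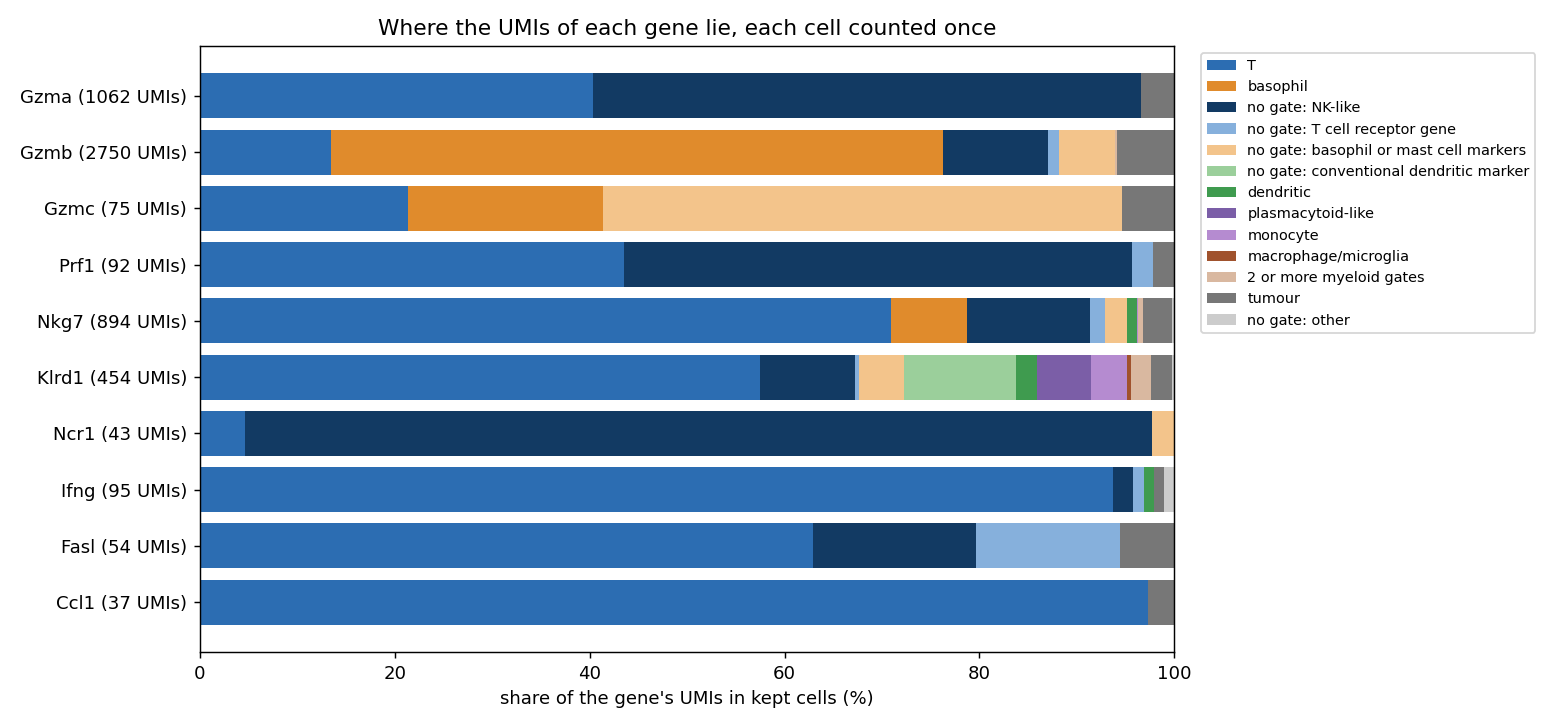
Share of each gene's UMIs in kept cells (%, horizontal axis) by the set of cells that held them, with the gene's UMI total beside its name; every cell is counted once. Basophils hold 62.8% of the Gzmb UMIs, the T gate 93.7% of the Ifng UMIs and the NK-like barcodes 93.0% of the Ncr1 UMIs.

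Gzmb, the protease that cleaves caspases in target cells, had the most UMIs of the 10 genes, 2750 in 129 kept cells. In the basophil gate it had 938 UMIs in 46 of 80 cells of replicate 1 and 788 in 32 of 68 cells of replicate 2. Its level was 1934 and 1633 CPM there, against 773 and 574 CPM in the T gate. Both basophil values were above both T values. In cells of a single gate the means were 1962 ± 245 and 1021 ± 41.7 CPM (SD, n = 2). In T cells 154 and 217 UMIs came from 11 of 32 and 9 of 36 cells. The NK-like barcodes described below were higher in replicate 1, at 13492 CPM (297 UMIs in 6 of 7 cells). The 1 such barcode of replicate 2 held 0 Gzmb UMIs.

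The share of basophil gate cells with a Gzmb UMI was 52.7% (exact 95% interval 44.3 to 61.0, 78 of 148, median depth 3319 UMIs). In the T gate it was 29.4% (19.0 to 41.7, 20 of 68, median depth 5284.5 UMIs). The macrophage/microglia gate, which served as the background, was deeper, at a median of 9532 UMIs, and 3 of its 491 cells held Gzmb (0.611%). All 3 also lay in another gate, and 0 of the 450 cells in that gate alone held a Gzmb UMI. After each cell was thinned to 1000 UMIs the share was 39.5% in the basophil gate and 19.1% in the T gate. Intervals and the limits that a count of 0 allows cover counting error only.

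Gzmb was spread over many basophils and was high in some. The 78 positive cells held 1 to 132 UMIs with a median of 8, and the 35 cells with 10 UMIs or more held 90.8% of the gate's Gzmb. No basophil gate cell held Cd3e. A T cell receptor gene was present in 5 of them, all with Gzmb.

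Most of the other killing genes were not detected in basophils. Prf1, Gzma, Klrd1, Ncr1, Ifng, Fasl and Ccl1 were each found in 0 of 148 basophil gate cells. With a floor of 3 counts this allows a share of up to 2.03% of cells with a UMI, and the exact 95% interval reaches 2.46%. Neither limit covers cells that express the gene below detection. In the T gate, thinning to 1000 UMIs took the share of cells with Prf1 from 17.6% to 4.41%. Of the 78 basophils with Gzmb, 0 held Prf1 or Gzma, which by the same floor allows up to 3.85% of them with a UMI (exact 95% interval up to 4.62%). Of the 20 T gate cells with Gzmb, 10 held Prf1 or Gzma (exact 95% interval 27.2 to 72.8%). The plot of Gzma and Prf1 against Gzmb per cell shows basophils along the zero line up to the highest Gzmb counts. Nkg7 and, in fewer cells, Gzmc were the exceptions. Nkg7, whose product sits in the granule membrane, had 31 and 39 UMIs in 25 of 148 basophils (16.9%, exact interval 11.2 to 23.9). Its level of 63.9 and 80.8 CPM was below the 1681 and 791 CPM of the T gate in both libraries. Nkg7 was in 13 of 70 basophils without Gzmb and in 12 of 78 with it.

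**Figure D2:**
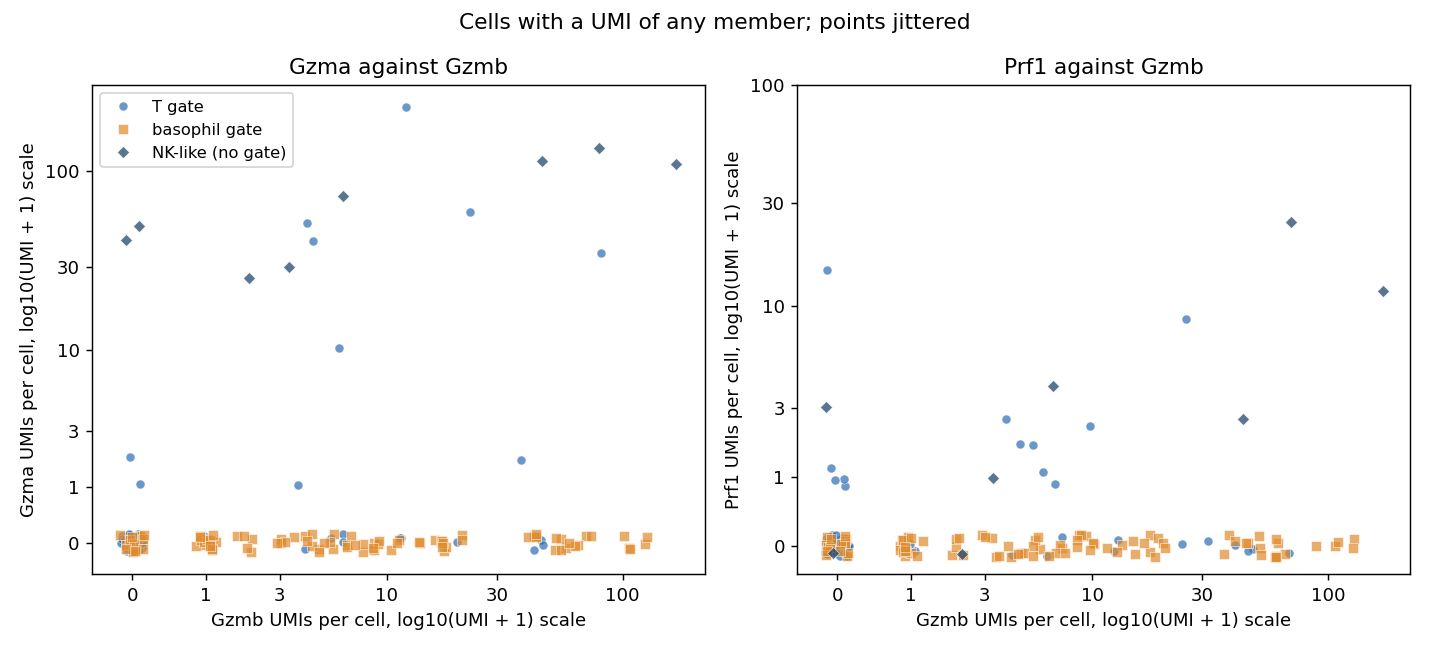
Gzma (left) and Prf1 (right) against Gzmb, in UMIs per cell on log10(UMI + 1) axes, for cells with a UMI of any of the 10 genes; points are jittered. Squares are basophil gate cells, all at 0 Gzma and 0 Prf1, circles T gate cells and diamonds the 8 NK-like barcodes.

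Gzmc, a granzyme of the same cluster as Gzmb, was rare, with 75 UMIs in 16 cells. In the basophil gate it had 3 UMIs in 3 cells of replicate 1 and 12 in 7 cells of replicate 2. In the T gate it had 16 UMIs in 3 cells of replicate 1 and 0 in replicate 2. Another 40 UMIs lay in 2 cells of replicate 1 with basophil or mast cell markers but no Mcpt8. Replicate 1 was higher in the T gate and replicate 2 in the basophil gate.

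Gzmb and Gzmc stand in a cluster of 15 protein-coding protease genes on chromosome 14, from Cma1 at 55941451 to the end of Gzmb at 56262260 (GENCODE M21, mm10). The partner genes named next were picked after their values were seen. Mcpt8, which defined the gate, lies 177 kb from Gzmb. Of the granzyme genes between them, Gzme, Gzmd, Gzmg and Gzmn were at 0 in the basophil, T and NK-like cells. Gzmf was seen in 1 T gate cell, with 156 UMIs. Gzmc, the nearest to Gzmb, had the basophil and T gate counts given above. Ctsg, the cathepsin G gene, had 36 UMIs in 17 basophils. The mast cell protease genes Mcpt1, Mcpt2, Mcpt4 and Cma1 were high in few cells: Mcpt1 had 1548 UMIs in 4 cells and Mcpt2 6889 UMIs in 5 cells.

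**Figure D3:**
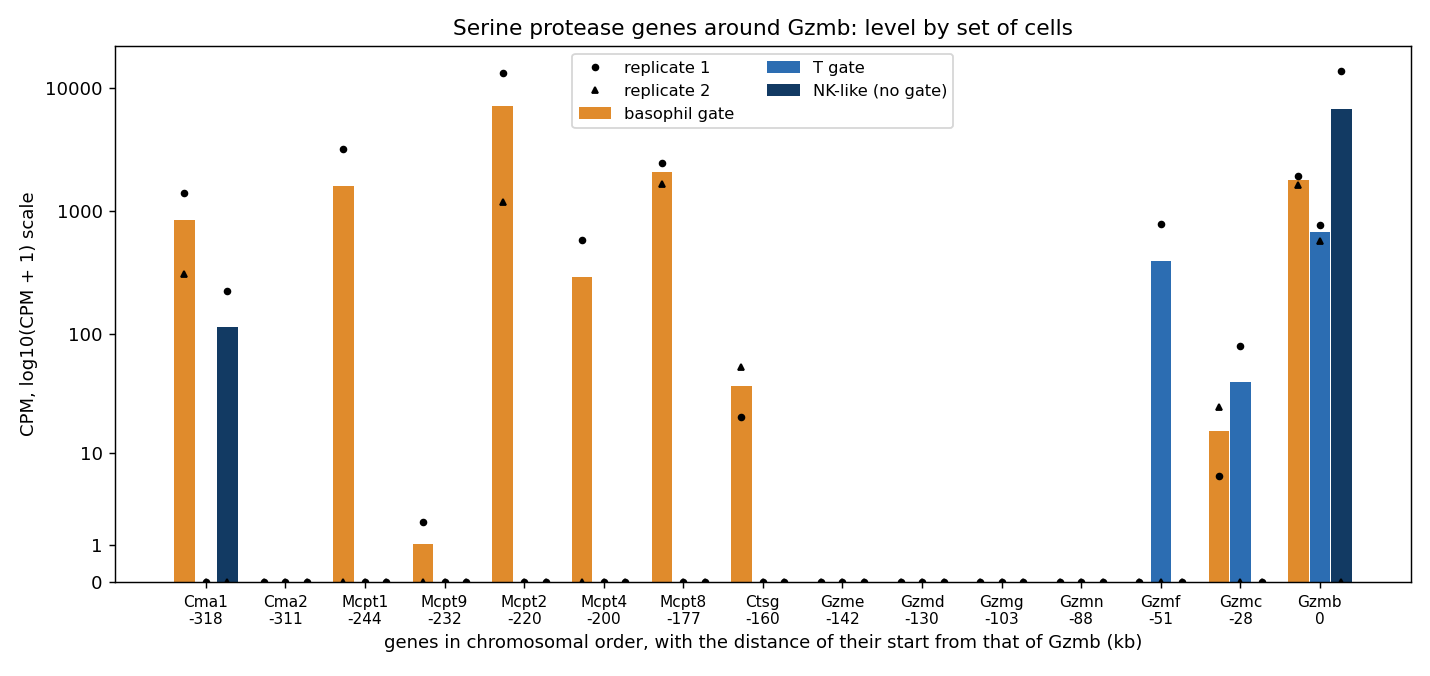
Level (CPM on a log10(CPM + 1) axis; bars, mean of 2 libraries; dots and triangles, replicates 1 and 2) of the 15 protease genes in chromosomal order, with the distance of each start from that of Gzmb in kb. Gzmb and Mcpt8 are high in both libraries of the basophil gate, whereas Mcpt1 and Mcpt4 are at 0 in replicate 2.

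The 4 cells with Mcpt1 or Mcpt4 were all in replicate 1 and all held Kit, the stem cell factor receptor of mast cells. They held 36 of the 1726 basophil Gzmb UMIs, or 2.09%. Without them, 144 cells of the gate still held 1690 Gzmb UMIs. Among the 144 was a cell of replicate 2 with 568 Mcpt2, 148 Cma1 and 1 Mcpt8 UMIs, and 0 of Gzmb.

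Basophil gate cells with and without Gzmb had median depths of 3338.5 and 3307 UMIs, but the set without it held 6 barcodes of 20000 UMIs or more, with 1 to 6 Mcpt8 UMIs each, that made up 58.4% of its UMIs. The set with Gzmb held 3 such barcodes, with 24.0%. Levels are therefore given without them, for 75 cells with Gzmb and 64 without, a choice made after the values were seen. Of the 10 basophil markers, 4 were then higher with Gzmb in both libraries, and all barcodes together gave 8. Mcpt8 was at 4004 and 4060 CPM with Gzmb and at 2580 and 2420 CPM without it. Hdc, the enzyme that makes histamine, was at 6238 and 9195 CPM against 4984 and 3896 CPM. Il4, the cytokine interleukin 4, was at 1475 and 2886 CPM against 561 and 459 CPM. The libraries of these 3 genes did not overlap, while those of Prss34, the other marker that was higher in both, did. Srgn, the serglycin core protein that binds granule proteases, was at 12837 and 13420 CPM against 8615 and 7210 CPM.

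The other 6 basophil markers were not higher with Gzmb in both libraries. Gata2 was at 1059 and 1182 CPM with Gzmb and 1122 and 1050 CPM without. Cd200r3 was at 1163 and 1174 CPM against 1282 and 1468 CPM, and Ms4a2, a subunit of the IgE receptor, at 318 and 240 CPM against 385 and 582 CPM. By share of cells, Il4 was in 57.3% with Gzmb and 48.4% without, Prss34 in 22.7% and 25.0%, and Ms4a2 in 36 of 75 and 43 of 64 cells. The cells were divided by a measured count, so these values are a description with no test.

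**Figure D4:**
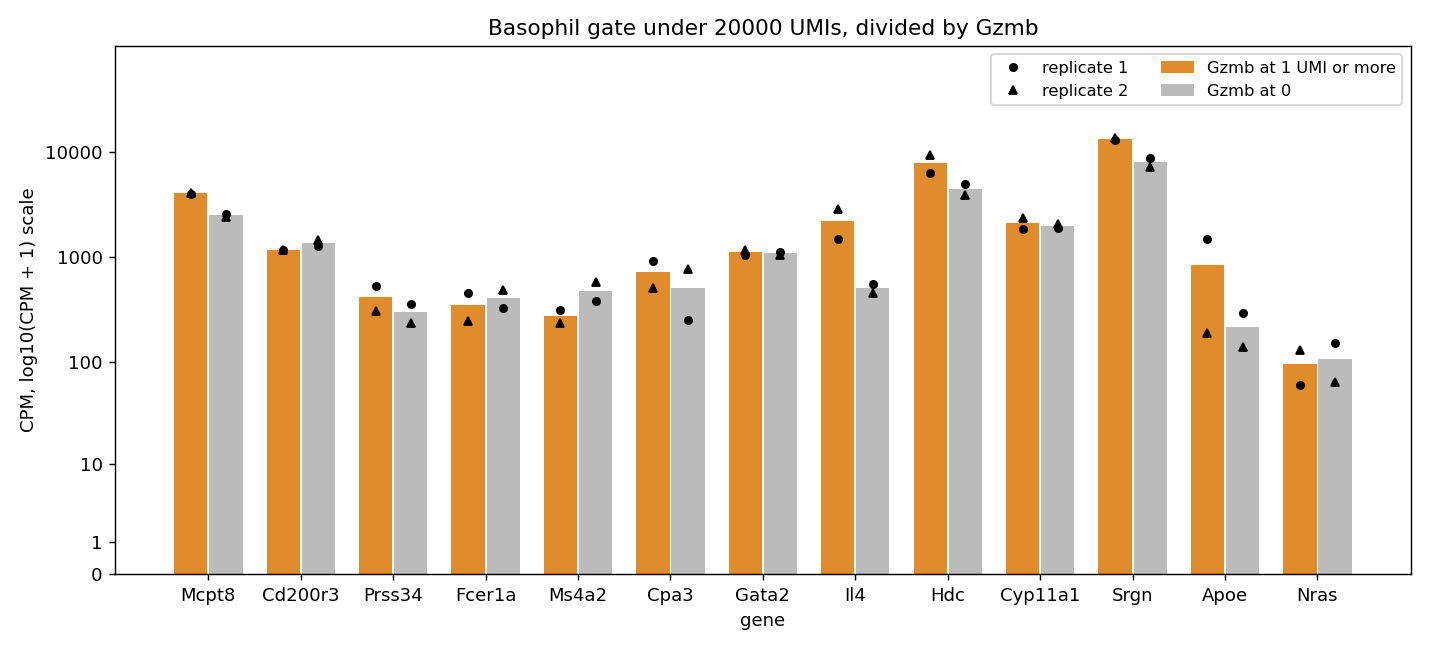
The 10 basophil markers with Srgn, Apoe and Nras (CPM on a log10(CPM + 1) axis) in basophil gate cells under 20000 UMIs, 75 with Gzmb and 64 without; bars are means of 2 libraries, dots and triangles are replicates 1 and 2. Mcpt8, Il4, Hdc and Srgn are higher with Gzmb in both libraries, whereas Cd200r3 and Ms4a2 are lower in both.

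In the T gate the killing genes were found together. Nkg7 was present in 42 of 68 cells, Klrd1, which encodes the CD94 chain of NKG2 receptors, in 35, Fasl in 19, Ifng in 17, Prf1 in 12 and Gzma in 10. In replicates 1 and 2 Gzma had 157 and 272 UMIs, Prf1 20 and 20, Ifng 29 and 60 and Fasl 13 and 21. One cell held 50.1% of the Gzma UMIs. In the 59 cells of the T gate alone the mean of Gzma was 1209 CPM against 753 in the whole gate, that of Prf1 116 against 76.6 and that of Fasl 96.4 against 60.4. Of the 22 cells with Cd8a or Cd8b1, the coreceptor of cytotoxic T cells, all held 2 or more of the 10 genes. Nkg7 was in 22 of them, Prf1 in 12, Gzmb in 11 and Gzma in 9. Of the 21 cells with Cd4, 12 held Nkg7, 5 held Gzmb, and 0 held Prf1 or Gzma. Ccl1, a ligand of the receptor CCR8, was found in 2 T gate cells, with 24 and 12 UMIs.

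A further 8 barcodes without Cd3e, all outside the gates, held at least 3 of 9 NK cell markers and are called NK-like; the cut of 3 was chosen after values were seen. Of the 8, 7 came from replicate 1 and 1 from replicate 2. All 8 held Gzma, Nkg7 and Klrd1, 7 held Ncr1, the NKp46 receptor gene that marks NK cells, and 6 held Prf1 and 6 held Gzmb. They carried 597 of the 1062 Gzma UMIs and 40 of the 43 Ncr1 UMIs. Of the markers that chose them, the killer lectin-like receptors Klre1 and Klrk1 were in 8 of 8 and the transcription factor Eomes in 6 of 8. Each also held 1 to 9 UMIs of T cell receptor genes, 28 of them from Trbc1, whereas Cd3d, Cd3g and Cd8a were at 0. Their median depth was 3013.5 UMIs.

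Klrd1 was found in several myeloid gates. Outside the T gate, the NK-like barcodes and the tumour gate 42 cells held it, 26 of replicate 1 and 16 of replicate 2, with 139 UMIs. Of these 3 held a T cell receptor gene. They included 9 monocyte gate, 9 dendritic gate, 4 macrophage/microglia gate and 4 plasmacytoid-like cells, some in more than 1 gate, and 19 cells outside every gate. Of the basophils, 0 held it, but their median depth was 3319 UMIs against 9924 in the monocyte gate. After each cell was thinned to 1000 UMIs, Klrd1 was in 1 of 103 monocyte and 3 of 90 dendritic gate cells. It was then in 2 of 487 macrophage/microglia, 0 of 10 plasmacytoid-like and 0 of 147 basophil gate cells.

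Most Klrd1 cells of the monocyte gate carried Cd7 and Cd209a. The genes set beside Klrd1 here were picked after their values were seen, and Cd7 was not on the lists of dendritic markers. Cd7 was in 9 of the 9 with Klrd1 and in 4 of the 90 without, and Cd209a, a lectin of dendritic cells, in 8 of 9 and 7 of 90. Their median depths were 11532 and 9477.5 UMIs. The other conventional dendritic markers listed were found less often than Cd209a in the 9 cells with Klrd1. Flt3, the receptor that drives dendritic cell development, was in 6 of these 9 and in 14 of the 90 without Klrd1. Clec9a was in 4 of 9 and 2 of 90, and Zbtb46 in 2 of 9 and 2 of 90. Itgax was in 2 and Xcr1 in 0 of the 9. The monocyte markers Ccr2 and Plac8 were each in 8 of the 9, and in 76 and 79 of the 90. Outside the gates, Flt3 was in 13 of 19 cells with Klrd1 and 4 of 327 without. Plac8, listed as a monocyte marker, was in 18 of 19 and 70 of 327. In the dendritic gate, where Klrd1 had 14 and 2 UMIs, Cd7 was in 1 of 9 and 4 of 81, and Cd209a in 0 of 9 and 0 of 81. Klrd1 was at 40.7 and 536 CPM in the plasmacytoid-like gate, a range that overlapped that of the T gate (497 and 428 CPM); of its 25 UMIs there, 21 were in 1 cell.

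The remaining myeloid signal was small. In the dendritic gate 112 Gzmb UMIs came from 4 cells, and in cells of that gate alone 1 UMI remained. In the macrophage/microglia gate Ifng had 0 and 41 UMIs, all in 1 cell that was also in the T gate. Of the 450 cells of that gate alone, 2 held any of the 10 genes, in both cases Klrd1. In the tumour gate, at a median of 44650 UMIs, 23 of 1981 cells held one of the 10 genes. Gzmb was in 13 of these, 9 with a single UMI, and the 4 with more all held Mcpt8 or a T cell receptor gene. All 12 T markers were detected over the tumour gate, with 5377 UMIs. The share of all its cells with Mcpt8 or a receptor gene is not given here, so the 4 cells cannot be set against it.

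**Figure D5:**
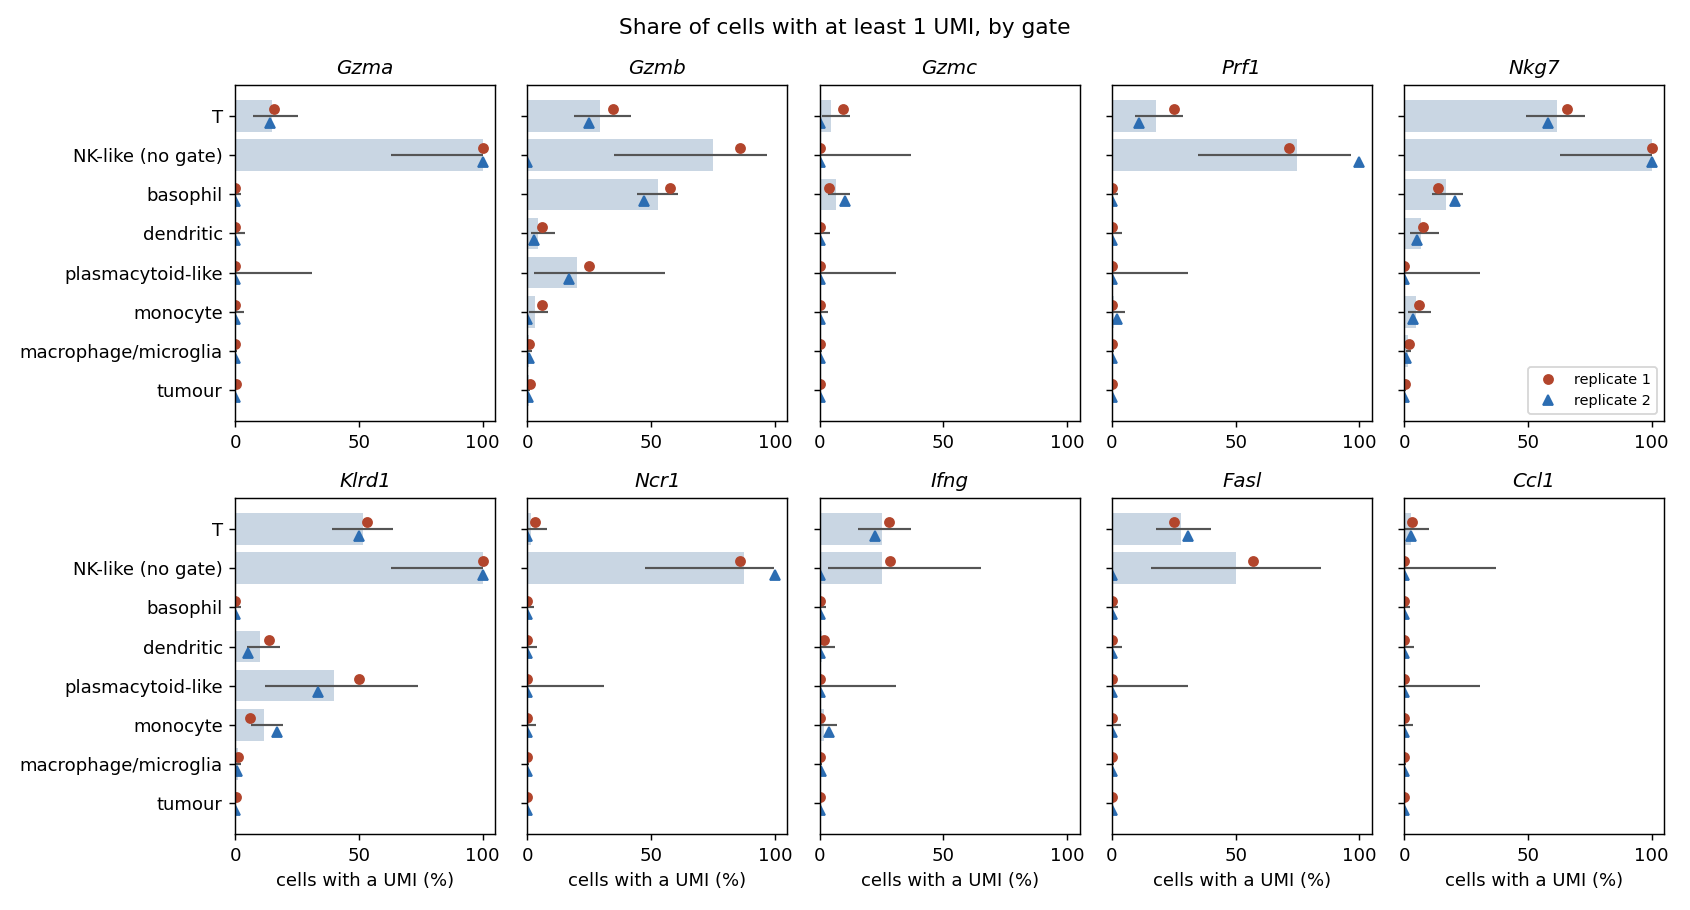
Share of cells with at least 1 UMI (%, horizontal axis) for each of the 10 genes by gate; bars are both libraries pooled, lines the exact 95% binomial intervals, circles and triangles replicates 1 and 2. Gzmb reaches 52.7% in the basophil gate, where Gzma, Prf1, Klrd1, Ncr1, Ifng, Fasl and Ccl1 are at 0.

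Genes with the most similar pattern were sought over 14 sums, 1 for each gate and library, among 12926 genes, by Pearson's r of log2(CPM + 1). The sums share libraries and depth, so r is a description. For Gzmb these were Il18r1, a chain of the interleukin 18 receptor (r = 0.943), Sipa1l1 (0.910) and Rab19 (0.907). For Nkg7 they were Txk (0.982), Gimap6 (0.981) and Uqcrh (0.947), and for Klrd1 Jaml (0.944), Zmat5 (0.916) and Grap2 (0.904).

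The wider killing pathway was then tested between gates. Of 75 other genes listed by role, 56 had enough counts. Counts were summed per library and gate over cells of a single gate, and a gene was called where edgeR gave an adjusted p under 0.05 and the groups differed by 1 or more on the log2 scale. The gates were cut from the same cells and the spread is that between 2 libraries, so p-values measure only how gate differences vary between these libraries. The basophil sums, 410221 and 405927 UMIs in replicates 1 and 2, kept deep barcodes with few Mcpt8 UMIs. That of replicate 1 held a barcode of 126399 UMIs with 2 of Mcpt8. That of replicate 2 held barcodes of 80643 and 41059 UMIs, with 1 and 3 of Mcpt8. The effect of leaving out all of these barcodes on the fold changes was not tested.

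Basophils were higher than macrophages and microglia for the interleukin 18 receptor and for Ccl3 and Ccl4, and lower for Ctsc, which activates granzymes, and Cst7, the inhibitor of Ctsc. Against macrophages and microglia, 17 of 56 genes were higher and 13 lower in basophils, while 23.2% of all 7476 genes tested were higher and 16.4% lower. The list's median log2 fold change was 0.01 (-0.02 with genes lacking counts in 1 gate at their bound), and that of all genes 0.19. Among cytokine receptors, Il18rap was at 210 and 192 CPM in basophils and 2.72 and 5.68 CPM in macrophages (log2 fold change 5.71 ± 0.35 SE, adjusted p = 9.3e-10 by edgeR), and Il18r1 had 106 against 2 UMIs. The chemokine genes Ccl3 (5.34 ± 0.43 SE) and Ccl4 (5.10 ± 0.33 SE) were higher too. Ccl4 stood at 11555 and 11867 CPM in basophils. Ccl5, another chemokine, was lower (-5.43 ± 0.43 SE).

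Of 8 granule matrix, processing and inhibitor genes, 1 was higher in basophils and 3 were lower. Srgn was higher (3.18 ± 0.24 SE on the log2 scale, adjusted p = 5.3e-09 by edgeR), at 7323 and 5903 CPM against 779 and 820 CPM. Ctsc, the protease that activates granzymes, was lower (-4.49 ± 0.27 SE), at 95.1 and 56.7 CPM against 1932 and 1831 CPM. The T gate was near the basophil level of Ctsc, at 83.8 and 122 CPM. Cst7 was lower in basophils than in macrophages too (-3.57 ± 0.30 SE). Of 5 exocytosis genes 3 were higher and 0 lower, among them Stx11 (3.30 ± 0.37 SE) and Unc13d (1.40 ± 0.43 SE), both needed for granule release; without barcodes lacking Malat1 the call of Unc13d was lost (1.01). The signalling adaptor gene Hcst was higher (2.57 ± 0.20 SE). Cd226, an activating receptor, had 22 UMIs in basophils and 0 in macrophages, at least 40.4-fold higher against a floor of 3 counts over the gate.

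Between the T and basophil gates, 20 of 56 genes were higher in T cells and 14 lower, while 6.33% of all genes were higher and 13.8% lower. The list's median log2 fold change was 1.04, also with the bounds, and that of all genes -0.20. With every cell holding a T cell receptor gene as T, 13 of 53 genes were higher and 21 lower, and both medians changed sign, to -0.47 and 0.07. That setting also changed the T gate, whose sums rose from 143242 and 205647 UMIs to 1435601 and 921114 UMIs. Ctsw, a cathepsin of killer cells, had 196 UMIs in T cells and 0 in basophils, at least 153-fold higher. Il2rb, the interleukin 2 and 15 receptor chain, had 115 against 0 UMIs, at least 89.7-fold higher, and Klrc1, the partner chain of CD94, 75 against 0, at least 58.5-fold. Ccl5 was higher in T cells (7.28 ± 0.44 SE). Ccl3 (-6.59 ± 0.53 SE), Ccl4 (-3.79 ± 0.32 SE), Srgn (-2.06 ± 0.24 SE) and Tyrobp (-7.39 ± 0.50 SE), a signalling adaptor, were lower. None of the 5 exocytosis genes was called in either direction. DESeq2 did not call Ctsw or Klrc1.

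Dendritic cells were higher than macrophages and microglia for the granzyme inhibitors Serpinb9 and Serpinb6b, the 2 genes called higher among 8 granule genes, of which 4 were lower (Ctsc, Cst7, Lamp1 and Lamp2). Against macrophages and microglia, 20 of 56 genes were higher and 16 lower, while 18.2% of all genes were higher and 16.5% lower. The list's median log2 fold change was 0.02 (-0.07 with bounds), and that of all genes 0.16. Serpinb9, the inhibitor of granzyme B, was at 873 and 688 CPM in dendritic cells and 18.1 and 20.1 CPM in macrophages (5.17 ± 0.21 SE, adjusted p = 6.9e-12 by edgeR). Serpinb6b, a related serpin, was at 1103 and 1057 CPM against 6.35 and 3.50 CPM (7.61 ± 0.30 SE). Klrk1, the gene of the activating receptor NKG2D, had 106 against 2 UMIs, and Runx3 was higher (4.50 ± 0.44 SE). Lower were Ctsc (-5.08 ± 0.30 SE), Fcer1g (-6.32 ± 0.43 SE) and Tyrobp (-3.55 ± 0.32 SE). Without cells holding a T cell receptor gene, 14 genes were higher and 17 lower, beside 20 and 16 with them. Among the named genes alone, 3 calls were lost: Sh2d1a (0.01 on the log2 scale, from 10.64), Il18r1 (2.08, from 4.64) and Cd247 (7.21, from 8.97).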

How the data were processed

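Single-cell RNA was measured in 2 droplet libraries. The deposited values are raw UMI counts, which per the labels came from Cell Ranger 3.1 (version per the submitters' processing notes), aligning to mm10 with STAR; a step equalising depth between runs is also named, but the deposited totals differ, so no correction was applied. The annotation is not given in the sources used here. The 10 genes, the gates and all lists were chosen with earlier results of these data known. Gates were cut as described above, with no clustering; doublets were left in, and removing those called by scrublet (scanpy 1.11.5) was an alternative. CPM is a gene's UMIs over the UMIs of a gate in a library, times 1000000. Binomial intervals are exact (Clopper-Pearson, 95%). For tests between gates, counts of cells in exactly 1 gate were summed per library for gates with at least 10 cells in each, and fitted with edgeR 4.0.16 in R 4.3.3 (quasi-likelihood, TMM, filterByExpr, library as a block, Benjamini-Hochberg over all genes tested), after the script was tested on simulated data. The plasmacytoid-like gate was too small for the fit. Named pathway genes were at most 2 higher and 2 lower per role and comparison, by size, of which some are printed; likeness was taken for the 3 genes with most UMIs in gated cells outside T. Alternatives changed the cell filters, gates, doublets, scaling (RLE), gene filter, block and tool (DESeq2 1.42.0). Reads of close paralogs, such as the granzymes and mast cell proteases of chromosome 14, could be split or lost in the counting. Promoters are from RefSeq (GRCm38.p6), where 9 of 10 genes matched.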

Additional observations from a re-analysis of the deposited data

Results flagged for a closer look

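Klrd1 had 9 UMIs in barcodes that the filters on genes and mitochondrial share removed, above the 3 counts that a count of 0 allows. These barcodes enter no comparison above.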

How the results depend on the processing

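The share of cells outside the T gate ran from 69.1% to 80.5% when 1 library was left out. It was 64.8% with T cells taken by any T cell receptor gene, and 64.8% with NK-like barcodes counted inside as well, since all 8 hold such a gene. The other settings run kept it within 1 SD. The 3 counts of called pathway genes stayed within 1.5 times under every setting that gave one. Leaving out a library leaves no residual degrees of freedom, so it gave fold changes only. With no replicate block, 30, 35 and 34 genes were called for basophil against macrophage, dendritic against macrophage and T against basophil, beside 30, 36 and 34 with it; the 2 libraries are blocks shared by all gates, since each gate's cells come from both. Reversed log2 fold changes were those of Ccl4 (dendritic, 0.21) and Zeb2 (T against basophil, 0.20) with overlapping gates, and Klra4 (T against basophil, 0.17) with any T cell receptor gene. Sh2d1a (dendritic, 10.64) was at 0 without replicate 1 and at 4.95 without replicate 2. The cause was not tested. In cells of a single gate, 10 of 70 levels of the 10 genes moved by more than 1 SD. Of 73 named fold changes, calls were lost in 24 combinations of gene and setting. RLE scaling moved the median of all genes for basophil against macrophage from 0.19 to 0.00 and its calls from 1738 higher and 1225 lower to 1428 and 1451; without barcodes lacking Malat1 they were 1412 and 1526. The immune gates hold 10 to 491 cells, so a gene at 0 may be present below the limits given.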
